A study of Mus musculus with 2 samples.

Results

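The miR-200 family is a set of 5 related microRNA genes in the mouse, Mir200a, Mir200b, Mir429, Mir200c and Mir141. They were chosen by name as the members of the family, with earlier results of these data known but by a rule that uses no measured value, and all 5 were found among the 1973 microRNA genes counted in newborn kidney. The samples were kidneys of B6NCrl mice at postnatal day 0, read by microRNA sequencing of the small RNA in a total RNA preparation. The series holds 1 group of 2 biological replicates, pup 1 and pup 2. Each sample is the 2 kidneys of 1 pup, both pups came from the same pregnancy, and sex was not recorded. No treatment, altered allele or control group is named in the labels, so the comparisons are those between members, between the family and other genes, and between the pups.

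MicroRNAs of this family are a hallmark of epithelial cells. They bind messenger RNAs of the repressors ZEB1 and ZEB2, which in turn repress the miR-200 genes and epithelial genes such as the one for E-cadherin, so each side holds the other down. In the kidney, epithelium makes up the nephron tubules and the collecting ducts, while stroma, vessels and blood make up other parts of the tissue. A microRNA is cut from a hairpin precursor, and bases 2 to 8 of the mature strand, the seed, lead target choice. Family members fall into 2 seed groups, and each group has a member in either genomic cluster.

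The mature 3p strands are shown because the seed groups rest on them; capitals mark the seed, and the sequences are those of RefSeq for GRCm38.p6.
miR-200b-3p: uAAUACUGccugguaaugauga
miR-429-3p: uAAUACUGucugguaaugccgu
miR-200c-3p: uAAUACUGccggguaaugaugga
miR-200a-3p: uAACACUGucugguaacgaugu
miR-141-3p: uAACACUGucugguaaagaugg

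The seed AAUACUG was carried by miR-200b, miR-429 and miR-200c, and the seed AACACUG by miR-200a and miR-141. Between miR-200b and miR-200a the seeds differ by 1 substitution, U4C, with positions counted from 1 at the 5′ end of the mature strand. Among the 1738 mature sequences of the RefSeq table, no others had either seed at bases 2 to 8. The closest pairs sit across the clusters. miR-200b and miR-200c shared 20 of 22 compared positions and differed by U11G and A22G. miR-200a and miR-141 also shared 20 of 22 and differed by C17A and U22G. Other pairs shared 17 or 18 positions.

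The deposited counts belong to the hairpins below, so reads of the 5p and the 3p strand are summed in every value; capitals mark the 3p strand.
Mir200b: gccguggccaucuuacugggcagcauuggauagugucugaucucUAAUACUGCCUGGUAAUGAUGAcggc
Mir200a: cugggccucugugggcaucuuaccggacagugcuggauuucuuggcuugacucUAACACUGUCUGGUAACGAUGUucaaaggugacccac
Mir429: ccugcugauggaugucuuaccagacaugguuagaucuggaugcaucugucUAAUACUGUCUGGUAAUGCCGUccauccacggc
Mir200c: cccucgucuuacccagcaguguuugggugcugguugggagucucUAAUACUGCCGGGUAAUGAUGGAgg
Mir141: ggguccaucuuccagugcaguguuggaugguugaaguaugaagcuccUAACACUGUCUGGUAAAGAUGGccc

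The hairpins were 69 to 90 bases long. Their predicted folding energies by RNAfold were -30.8 kcal/mol for Mir200b, -31.6 for Mir200c, -34.7 for Mir429, -35.2 for Mir141 and -42.9 for Mir200a. The 5p strands fall into other seed groups, with AUCUUAC in Mir200a and Mir200b, AUCUUCC in Mir141, GUCUUAC in Mir200c and UCUUACC in Mir429. The longest stretch that any member shared with another hairpin of the table was 17 bases, between Mir200a and Mir141, and 16 of these lie in the 3p strand. Mir200b and Mir200c shared 14 bases. A read of the full 3p strand, 22 or 23 bases, thus matches 1 member only among these hairpins, while how shorter or misread reads were counted was not tested.

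On mm10, Mir200b (ENSMUSG00000065549) lies at chr4:156055681-156055750, Mir200a (ENSMUSG00000065400) at chr4:156054896-156054985 and Mir429 (ENSMUSG00000065427) at chr4:156053905-156053987, all on the minus strand. In the direction of transcription Mir200b comes first, Mir200a follows after 695 bases and Mir429 after another 908. All 3 lie inside the protein-coding gene Ttll10 and the long non-coding gene Gm13648 of the same strand. Mir200b and Mir200a are in introns of both, and Mir429 is in an intron of Ttll10 and in an exon of Gm13648. The annotated start of Gm13648 is 4052 bases upstream of Mir200b.

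The other cluster is shorter. Mir200c (ENSMUSG00000065462) lies at chr6:124718322-124718390 and Mir141 (ENSMUSG00000065474) at chr6:124717914-124717985, also on the minus strand, with 336 bases between them. Both are in an intron of Gm15884, a non-coding gene of the same strand whose annotated start is 441 bases upstream of Mir200c. Mir141 also overlaps, in part, an exon of Gm29008, a gene model awaiting experimental support. Host transcripts were not measured, since the tables list microRNA genes only.

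Depth was 5832192 counts in pup 1 and 3846704 in pup 2 on the strand of a microRNA gene, out of 10014956 and 6700198 reads. Reads listed as multimapping, 30.3% and 31.0%, are not in these counts. Genes whose hairpins share long stretches with others can thus be undercounted, so levels and ranks hold for the counts used. Levels are given as CPM, a count divided by the library total of these counts and scaled to a common size, with mean ± SD over n = 2 pups. The 95% Wilson intervals behind each level cover counting error alone, as amplified reads carry no tag that tells molecules apart. A count of 0 would allow up to 3 counts, or 0.514 CPM in pup 1 and 0.780 CPM in pup 2, and every member was far above that. An exact sign test over 2 pups, two-sided, cannot fall below p = 0.5, so differences between genes are set against the SD over pups and the counting intervals, with no p-value. The column taken as the opposite strand held 0 reads at the 5 genes in both pups. In tissue as a whole, fewer cells of a type and less RNA per cell cannot be told apart.

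All 5 members were present, and their levels spanned more than an order of magnitude in a fixed order. Mir429 was highest, with 100046 counts or 17154 CPM in pup 1 (interval 17049 to 17260) and 66138 counts or 17193 CPM in pup 2 (17064 to 17324). The pups gave nearly the same level, 17174 ± 27.8 CPM, the closest agreement among the members relative to the mean (coefficient of variation 0.162%). It ranked 17 among all genes in both pups.

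Mir200b, the first hairpin of the same cluster, stood at 8575 CPM in pup 1 (8500 to 8650) and 8885 in pup 2 (8792 to 8980), or 8730 ± 220 CPM. It was a little higher in pup 2, and these intervals did not overlap. Mir200a, the hairpin between them, had 1391 CPM in pup 1 (1361 to 1422) and 1355 in pup 2 (1319 to 1392), or 1373 ± 25.8. Its intervals overlapped. Mir200a was thus the lowest gene of its cluster, although it lies between the other two.

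Mir200c led the other cluster with 3762 CPM in pup 1 (3713 to 3812) and 3581 in pup 2 (3522 to 3641), or 3671 ± 128 CPM. It was lower in pup 2, with intervals that did not overlap. Mir141, its downstream neighbour and the lowest member, had 669 CPM in pup 1 (648 to 690) and 645 in pup 2 (620 to 671), or 657 ± 16.6. These intervals overlapped. The order Mir429, Mir200b, Mir200c, Mir200a, Mir141 was the same in either pup, and each step between adjacent members was larger than the SD of both. Ranks among all genes, by counts without multimapping reads, were 17, 24, 38, 68 and 88 by mean CPM. The read yield per molecule may differ between microRNAs and was not tested, so these are orders of reads.

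**Figure D1:**
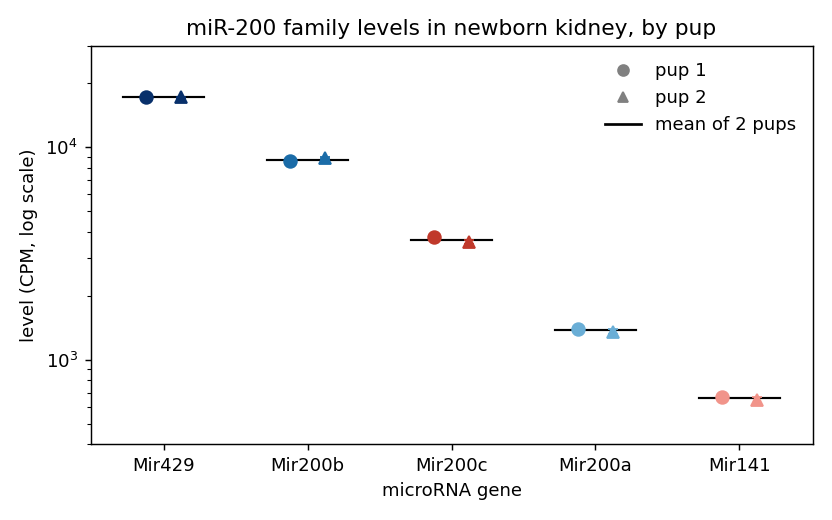
Levels of the 5 miR-200 genes in CPM on a log axis; circles are pup 1, triangles are pup 2, black lines are means, and the Wilson 95% intervals are mostly narrower than the symbols. Members step down from Mir429 at 17174 CPM to Mir141 at 657 CPM, and the pups lie close together at each gene.

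Together the 5 genes held 3.16% of counts in pup 1 (3.14 to 3.17) and 3.17% in pup 2 (3.15 to 3.18). The coefficient of variation of this sum between the pups was 0.244%, while those of single members ran from 0.162% for Mir429 to 3.48% for Mir200c. Mir429 alone supplied 54.3% ± 0.0446 of family counts, Mir200b 27.6% ± 0.628, Mir200c 11.6% ± 0.433, Mir200a 4.34% ± 0.0922 and Mir141 2.08% ± 0.0576. More than 4 in 5 family reads therefore came from only Mir429 and Mir200b.

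The cluster of Mir200b, Mir200a and Mir429 gave 86.0% of family counts in pup 1 (85.8 to 86.1) and 86.7% in pup 2 (86.5 to 86.8). It exceeded the cluster of Mir200c and Mir141 6.12-fold in pup 1 (95% exact counting interval 6.04 to 6.20) and 6.49-fold in pup 2 (6.38 to 6.60). The ratio, 6.31 ± 0.262, was far from 1 in both pups, and its intervals in the pups did not overlap. One cluster has 3 hairpins and the other 2. Compared hairpin by hairpin within the closest pairs, Mir200b stood 2.28 times above Mir200c in pup 1 and 2.48 times in pup 2, and Mir200a stood 2.08 and 2.10 times above Mir141. Without Mir429, then, each remaining hairpin of the larger cluster was 2.08 to 2.48 times its closest relative in the smaller one.

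**Figure D2:**
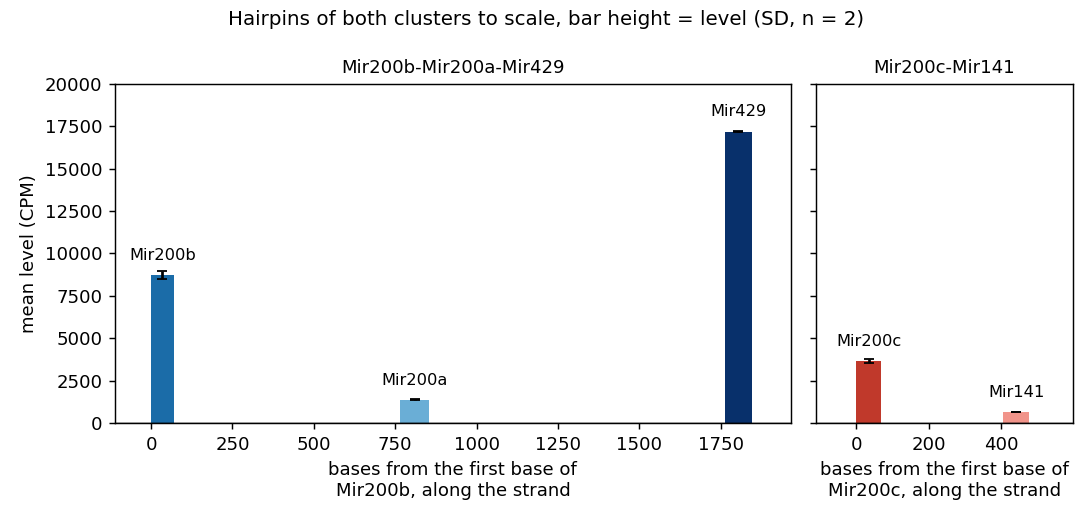
Hairpins of both clusters drawn to scale, with distance in bases from the first base of Mir200b or Mir200c along the transcribed strand and bar height giving mean CPM (error bars are SD, n = 2). The highest bar is the last hairpin in the left panel, Mir429 at 17174 CPM, and the first hairpin in the right panel, Mir200c at 3671 CPM.

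Counts fell mostly into hairpins of the AAUACUG group. These 3 genes held 93.5% of family counts in pup 1 (93.4 to 93.6) and 93.7% in pup 2 (93.5 to 93.8), or 93.6% ± 0.150, against 6.42% ± 0.150 for Mir200a and Mir141 with AACACUG. The ratio of the groups was 14.3 in pup 1 (14.1 to 14.6) and 14.8 in pup 2 (14.5 to 15.2). The split held in both clusters, where hairpins with AAUACUG took 94.9% of counts in pup 1 and 95.1% in pup 2 in the larger cluster, and 84.9% and 84.7% in the smaller. Since a hairpin count includes 5p reads, these are shares of hairpins and not of mature strands.

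Within the larger cluster, Mir429 stood 2.00 times above Mir200b in pup 1 (1.98 to 2.02) and 1.94 times in pup 2 (1.91 to 1.96). Mir429 exceeded Mir200a 12.3-fold in pup 1 and 12.7-fold in pup 2. Mir200b exceeded Mir200a 6.16-fold in pup 1 (6.02 to 6.31) and 6.56-fold in pup 2 (6.37 to 6.75). In the smaller cluster, Mir200c exceeded Mir141 5.63-fold in pup 1 (5.44 to 5.82) and 5.55-fold in pup 2 (5.32 to 5.79). In both clusters, then, each AAUACUG hairpin exceeded the AACACUG hairpin, by 12.5 ± 0.255 times for Mir429 and 6.36 ± 0.279 times for Mir200b in the larger cluster and by 5.59 ± 0.0535 times for Mir200c in the smaller. These 3 ratios differed from each other by more than their SDs.

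Ratios within a library do not depend on how libraries are scaled, so they also show which members kept pace between the pups. Across the 10 pairs, the log2 ratio of a pair changed by 0.01 to 0.12 from pup 1 to pup 2. Intervals in the pups were separate for 4 pairs, namely Mir429 with Mir200b, Mir429 with Mir200c, Mir200b with Mir200c and Mir200b with Mir200a. The pair with the largest change was Mir200b and Mir200c, at 0.12, and the pair with the smallest was Mir200a and Mir141, at 0.01. Mir200b was relatively higher in pup 2 in each of the 3 separate pairs that include it.

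**Figure D3:**
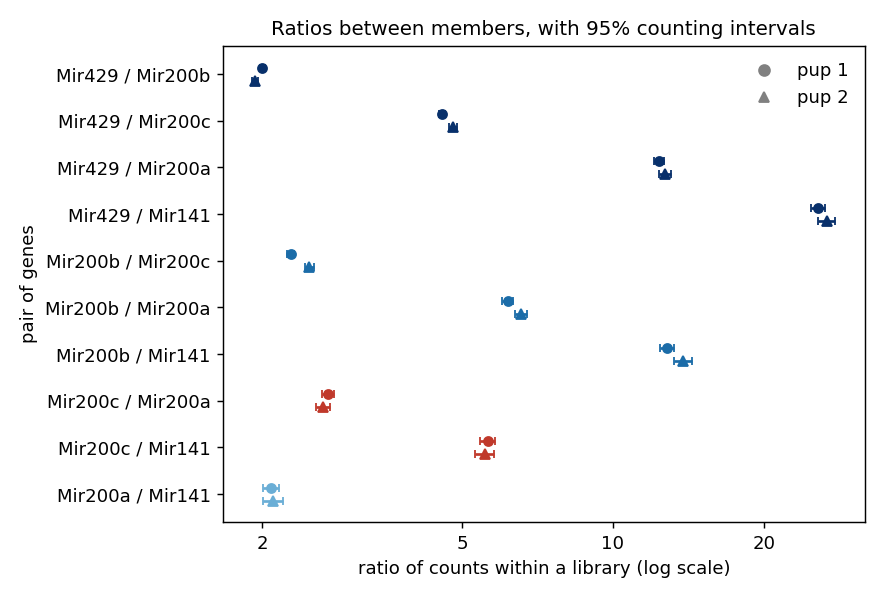
Ratio of counts for each of the 10 pairs of members within a library, on a log axis; circles are pup 1, triangles pup 2, and bars are 95% exact counting intervals. Ratios run from about 2 for Mir429 over Mir200b and Mir200a over Mir141 to over 25 for Mir429 over Mir141, and pups differ little beside the differences between pairs.

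The family was next set beside other genomic clusters of microRNAs anywhere in the genome, taken as tested genes on 1 strand with gaps of at most 10000 bases. Uneven counts were common. They leave out reads listed as multimapping, 30.3% and 31.0% of reads in the pups. Hairpins that share long stretches with others can thus be undercounted, which can change the spans. The part of this in the spans and medians given here was not tested. The 12.5-fold span of mean levels from Mir200a to Mir429 was larger than in 3 of the 6 clusters with 3 tested genes, itself among the 6, whose median span was 10.6-fold. The 5.59-fold span from Mir141 to Mir200c was larger than in 13 of 29 clusters of 2, with a median of 8.25-fold. Among clusters whose every gene had a mean count of at least 1000, the 12.5-fold span was larger than in 2 of 4, with a median of 10.6-fold, and the 5.59-fold span was larger than in 9 of 13, with a median of 2.29-fold. The members of both clusters also moved little against each other between the pups. The log2 ratios between pups spanned 0.09 in the larger cluster, where the median of its size was 0.17, and 0.02 in the smaller, where it was 0.19. Among the clusters at that depth, the medians were 0.17 over 4 clusters and 0.13 over 13, and 0 and 1 clusters spanned less than those of the family. These are descriptions, with no test.

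Pup 2 was then compared with pup 1 for each of the 324 genes whose counts averaged 10 or more over the pups, by an exact two-sided binomial test with TMM library sizes and Benjamini-Hochberg adjustment over all of them. That test compares the reads of 2 libraries under counting error and not conditions. It called 109 of 324 genes, 33.6%, with 41 higher in pup 2 (12.7%) and 68 lower (21.0%). Of the 5 members, 3 passed, 1 higher and 2 lower. Among the 74 genes at or above 1000 CPM, 57 were called, so calls at the depth of this family are frequent.

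Mir200c was lower in pup 2 with a log2 ratio of -0.09 (95% counting interval from -0.12 to -0.06; the exact binomial test gave an adjusted p = 2.6e-08). Mir200b was higher in pup 2 at 0.03 (0.01 to 0.05, adjusted p = 0.011, same exact test). Mir429 passed at -0.018 (-0.032 to -0.0036, adjusted p = 0.042, exact test), but with library totals in place of TMM it turned to 0.0033 (adjusted p = 0.84), so its direction depends on the scaling. Mir200a at -0.06 (-0.11 to -0.01) and Mir141 at -0.07 (-0.15 to 0.00) had adjusted p = 0.060 and 0.13 by the exact test. These differences are small. The median absolute log2 ratio was 0.06 over the 5 members, 0.15 over all tested genes and 0.09 over genes at or above 1000 CPM. The exact test of edgeR, run with the common dispersion of both pups at a biological coefficient of variation of 9.29%, called none of the 5, with unadjusted p from 0.63 for Mir200c to 0.93 for Mir429. By that exact test 1 gene of 324 was called and 14 had an unadjusted p under 0.05. Its dispersion comes from the very difference that is tested, with 1 library a side, so few calls follow from its construction and it is no independent check of any member.

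**Figure D4:**
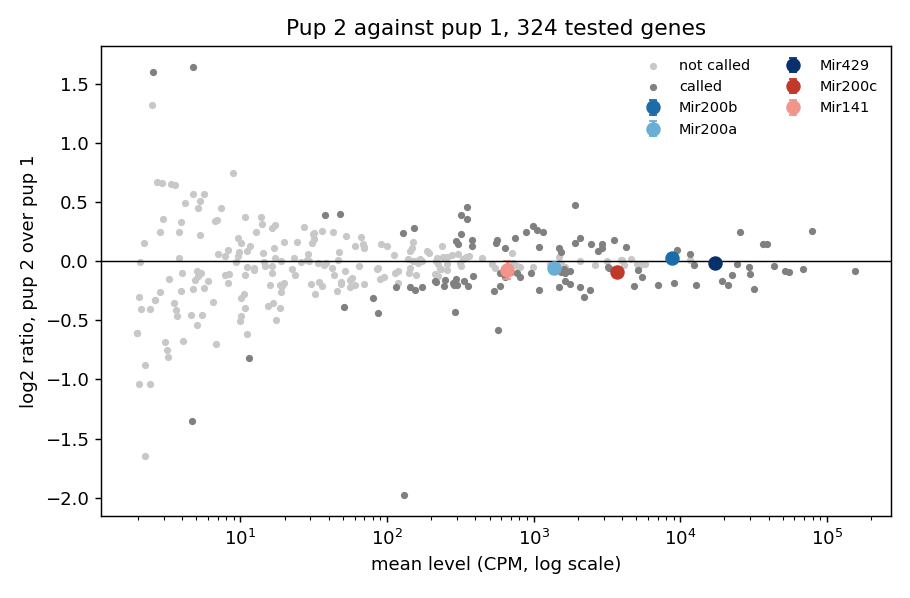
Log2 ratio of pup 2 over pup 1 against mean CPM (log axis) for the 324 tested genes; dark grey points passed the exact binomial test, light grey points did not, and coloured points are the members with 95% counting intervals. The members lie between -0.09 and 0.03, near the line at 0.

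Genes closest in level were taken as the 2 above and the 2 below each member by mean CPM, since 2 samples give no pattern to match. Mir429 lay below Mir30a (21077 ± 1872) and Mir17 (19249 ± 1401 CPM) and above Mir21a (12810 ± 1139) and Mirlet7d (12379 ± 51.5), each gap being larger than the SDs. Mir200b lay below Mir99b and Mir20a and above Mir93 and Mir98, and its order with Mir20a (9118 ± 719) turned over between the pups. Mir200c lay between Mir652 and Mir181c above and Mir100 and Mir139 below, and its order with Mir100 (3546 ± 345) also turned over. Mir200a did not differ beyond the SDs from Mir425 (1399 ± 22.0) or Mir615 (1480 ± 143), nor Mir141 from Mir221 (649 ± 24.3) or Mir148a (637 ± 34.2). Each of these orders was nevertheless the same in both pups. Mir149 and Mir298 were below Mir200a, and Mir532 and Mir96 above Mir141, by more than either SD. The absolute difference of mean log2 CPM was smallest for Mir141 and Mir221 at 0.02 and for Mir200a and Mir425 at 0.03.

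Among lists tied to cell types, the other epithelial microRNAs were lower than the miR-200 genes as a sum. All 6 of them, Mir203, Mir205, Mir183, Mir96, Mir182 and Mir375, were counted, at 0.651% of counts in pup 1 (0.645 to 0.658) and 0.658% in pup 2 (0.650 to 0.666). The family share exceeded theirs 4.84-fold in pup 1 and 4.81-fold in pup 2. Mir182 had 2076 ± 204 CPM, Mir203, known from skin epithelium, 1907 ± 165, and Mir183 996 ± 12.4. Mir205, known from stratified epithelia and like miR-200 a regulator of ZEB1 and ZEB2, had 747 ± 81.2, Mir96 688 ± 2.10 and Mir375 129 ± 16.4 CPM. The highest of them was below Mir200c, and Mir141 was lower than 5 of the 6 by mean level. Between pups 3 of the 6 were called higher in pup 2 and 1 lower, beside 12.7% and 21.0% of all tested genes. Calls were more frequent at depth, with 57 of the 74 genes at or above 1000 CPM called in either direction. The median log2 ratio of the 6 genes was 0.06, beside -0.06 for the family and -0.04 for all tested genes.

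The 4 genes of the proximal tubule list, which mark maturing nephrons, were all counted but held only 0.0848% in pup 1 and 0.0896% in pup 2. Mir192 led with 563 ± 54.8 CPM, followed by Mir194-2 with 296 ± 18.5, Mir215 with 10.1 ± 1.45 and Mir194-1 with 3.70 ± 0.825. The family share was 37.2 and 35.3 times theirs in the pups. Even Mir141, the lowest miR-200 gene, was above Mir192 by more than either SD. Mir194-1 and Mir194-2 share 22 bases with another hairpin, so their counts leave out reads listed as multimapping, 30.3% and 31.0% of reads in the pups. Of the 4, 1 was called higher in pup 2 and 1 lower (12.7% and 21.0% over all tested genes), with a median log2 ratio of -0.23. Mir192, with most of the counts, was at 0.18, while Mir194-2 was at -0.15, Mir215 at -0.31 and Mir194-1 at -0.47. Mir215 had only 65 and 35 counts in the pups and Mir194-1 only 25 and 12.

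As sums, the stromal and the endothelial lists were not low beside the family, though most of their single genes were below Mir200c. The stroma and smooth muscle genes held 4.03% of counts in pup 1 and 4.46% in pup 2, so the family stood at 0.783 and 0.711 of their share. Mir143 supplied most of it at 36917 ± 2966 CPM, with Mir214 at 4141 ± 15.1, Mir145a at 1093 ± 77.5, Mir199b at 214 ± 16.5, Mir199a-2 at 56.0 ± 3.78 and Mir199a-1 at 3.23 ± 1.26. The 3 miR-199 hairpins share 27 or 28 bases with another hairpin, so their levels and the stromal share do not include such reads where they matched several places. The endothelial genes held 7.29% and 8.81%, nearly all in Mir126a at 79588 ± 10777 CPM, with Mir221 at 649 ± 24.3 and Mir222 at 257 ± 0.00495. Both sums were higher in pup 2 while the family share moved by under 1%, from 3.16% to 3.17%. Of the 6 stromal genes 2 were called higher in pup 2 and 1 lower, and of the 3 endothelial genes 1 in each direction. The median log2 ratios were -0.09 and -0.02. Over all tested genes 12.7% were called higher and 21.0% lower, and 57 of the 74 genes at or above 1000 CPM were called. Only Mir143, Mir145a and Mir126a had positive log2 ratios. The other genes of both lists were negative, from -0.81 for Mir199a-1 to -0.02 for Mir222. Whether cell type content differed between the pups, and any part of it in the values of the family, was not tested.

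Blood cell genes held 0.0852% in pup 1 and 0.0660% in pup 2, so the family exceeded them 37.0-fold and 48.0-fold. Of 7 measured, Mir223 had 298 ± 26.1, Mir155 257 ± 6.83, Mir144 37.6 ± 7.54, Mir150 30.4 ± 2.57 and Mir486 1.51 ± 1.17 CPM, while Mir142b had 0 counts in the column used. The column taken as the opposite strand held 2128 reads at Mir142b in pup 1 and 1423 in pup 2, and with these added, which was decided only once the data had been seen, the family exceeded the blood cell genes 25.9-fold and 30.8-fold. Mir451a, a microRNA of red blood cells, had 208 CPM in pup 1 and 53.6 in pup 2. Its cluster neighbour Mir144 was instead higher in pup 2, at 42.9 CPM against 32.2 in pup 1 (log2 ratio 0.39). Mir486 had 4 counts in pup 1 and 9 in pup 2. Mir223, Mir150 and Mir155 were lower in pup 2, with log2 ratios from -0.20 to -0.08. Whether blood cell content differed between the pups was not tested. Of the 5 tested genes of the list, 1 was called higher in pup 2 and 2 lower (12.7% and 21.0% over all tested genes), with a median log2 ratio of -0.19. No miR-200 gene showed a difference between pups of the size seen for Mir451a, with a log2 ratio of -1.98.

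**Figure D5:**
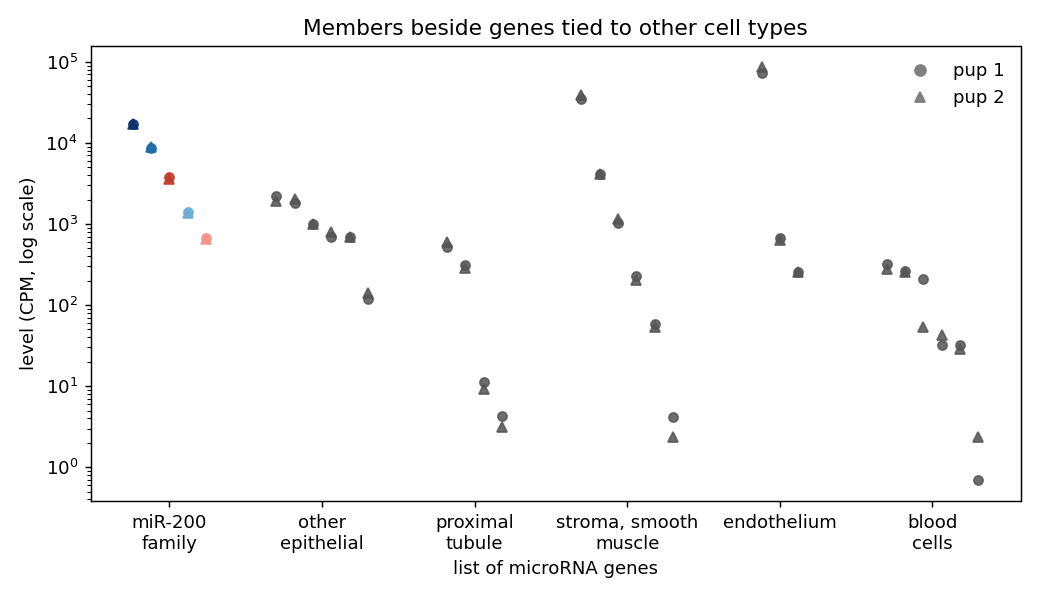
Levels in CPM on a log axis for the miR-200 genes (coloured) and the genes of 5 cell type lists (grey), with circles for pup 1 and triangles for pup 2; Mir142b, at 0 counts, is not drawn. Mir429 and Mir200b lie above all other epithelial and proximal tubule genes, and below Mir143 and Mir126a.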

How the data were processed

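MicroRNA sequencing libraries of 2 samples were used. The authors deposited read counts per gene, whole numbers without normalization, on assembly mm10 and annotation M4, per the deposited notes that accompany the tables. Aligner, adapter trimming and read filters: not given in the sources used here. No header names the columns of the tables. In every gene the first column equals the sum of the other columns, and of those the middle one, which holds 5832192 and 3846704 counts against 121726 and 78841 in the last, was taken as the gene strand. Rows naming no gene (multimapping 30.3% and 31.0%, unmapped 8.52% and 8.69%, no gene on that strand 2.91% and 2.92% of reads) stayed out of totals. Identifiers were matched without version to GENCODE M21, 1894 of 1973. The tables hold another version of Mir200b and Mir200c, whose coordinates are those of M21.

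CPM used the total over named genes. The pup comparison used SciPy 1.17.1 and TMM sizes of edgeR 4.0.16, with a prior of 0.5 counts and a threshold of 0.05. It was tried on simulated counts that varied by counting error alone, as the test assumes. That trial therefore says nothing of spread between pups. Alternatives used DESeq2 1.42.0 size factors, library totals, other filters, either-strand counts and an edgeR exact test. Folding used RNAfold 2.7.2. P-values of the binomial test rest on counting error of these reads alone. Those of the edgeR exact test add a spread estimated from the same pups. The genes named are the members, the 2 nearest above and below each in level, and context list genes at or above 1 CPM in both pups or at 0; Mir486 and Mir9-2, which meet neither, are named for completeness. Members and lists were chosen with earlier results of these data known. The comparison with other genomic clusters, with its limit of 1000 counts, was chosen after the data were seen.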

Additional observations from a re-analysis of the deposited data

How the results depend on the processing

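Levels are relative to the total chosen. Per all reads the family share was 1.83%, with Mir429 at 9930, Mir200b at 5047, Mir200c at 2123, Mir200a at 794 and Mir141 at 380 CPM. With the most abundant gene, Mir10a, left out of the total these were 3.74%, 20311, 10324, 4342, 1624 and 777. With either-strand counts the family share was 3.10%, Mir429 16826 and Mir200a 1345 CPM, while the other levels moved by less than 1 SD. TMM and DESeq2 scaling moved no level by more than its SD. With 2 libraries such scaling shifts the pups in opposite directions (TMM factors 0.993 and 1.007), so a mean over pups could hardly move. The cluster ratio was 6.12 to 6.49 and the AAUACUG share 93.5% to 93.7% with either pup alone. With either pup alone the levels ran from 17154 to 17193 (Mir429), 8575 to 8885 (Mir200b), 3581 to 3762 (Mir200c), 1355 to 1391 (Mir200a) and 645 to 669 CPM (Mir141). Leaving out either pup returns the value of the other, so these ranges repeat the values per pup given above and add no check.

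Between pups, the edgeR exact test called 1 gene in place of 109 and 0 of the 5 members in place of 3, since it adds to counting error a spread estimated from the same difference. Mir200b and Mir200c kept direction and call in the binomial test under all scalings, filters and strand columns tried. Mir429 changed to 0.0033 with library totals and lost its call with DESeq2 size factors (-0.0034, adjusted p = 0.82), with no filter (adjusted p = 0.090) and with either-strand counts (adjusted p = 0.091). Mir200a passed with a mean count of at least 100 (adjusted p = 0.042), where fewer genes were tested. No paired analysis was possible because both pups form 1 group.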

Other observations

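MicroRNAs known from the transition between epithelial and mesenchymal states, other than the miR-200 family, were counted as 9 genes with a joint share of 8.54% in pup 1 and 8.16% in pup 2. Nearly all of it came from Mir10b at 68835 ± 1576 CPM and Mir21a at 12810 ± 1139 CPM. The p53-linked genes were lower, with Mir34c at 539 ± 61.0, Mir34a at 321 ± 2.57 and Mir34b at 23.2 ± 0.603 CPM, while Mir9-3 had 1.68 ± 0.196 and Mir9-2 had 0 and 1 counts. Mir9-2 and Mir9-3 share 33 and 26 bases with another hairpin, so their counts leave out multimapping reads. Mir205 and Mir155 also belong to lists given above. Of 7 tested genes 1 was called higher in pup 2 and 3 lower (12.7% and 21.0% over all tested genes), with a median log2 ratio of -0.07. Mir429 was above each of these 9 genes except Mir10b, and Mir141 was above 6 of the 9.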
